A study of Mus musculus with 9 samples.

Results

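Immunoglobulin genes were followed across 3 cell populations sorted from mouse spleen. Every row of the count table was taken whose symbol is a heavy chain constant gene (Ighm, Ighd, Ighe, Igha, Ighg1, Ighg2b, Ighg2c or Ighg3), a light chain constant gene (Igkc, Iglc1, Iglc2 or Iglc3) or Jchain, or begins with Ighv, Igkv or Iglv, and whose reads summed to 10 or more over the 9 libraries. This left 40 of the 50508 rows of the table, out of 359 rows with such a symbol, of which 260 were at 0 throughout and 59 had reads but stayed below the threshold. The 40 members are 6 heavy constant genes, 4 light constant genes, Jchain, 7 heavy V segments, 20 kappa V segments and 2 lambda V segments. Ighe and Ighg1 were below the threshold. The choice of members used the summed reads, so being detected is not a result here. The rule did not use the differences between populations, but a row could pass it through the reads of 1 library alone. Just inside the threshold, at 10 reads each, were Igkv1-117, with 9 reads in DC replicate 1 and 1 in TDC replicate 2, and Igkv4-77, with all of its reads in TDC replicate 3. Just outside, at 9 reads each, were Igkv6-32 and Igkv9-124.

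The populations were the cells the labels call TDC, conventional dendritic cells (DC) and conventional T cells, with 3 libraries each. All came from untreated mice, 8 weeks old and homozygous for Zbtb46-GFP, a reporter in which green fluorescent protein marks use of the Zbtb46 locus, so controls and TDC alike carry the reporter on both alleles. Each library came from a pool of spleens, 5 for replicate 1 and 6 for replicates 2 and 3, and no sort gate is stated in the sources used here. The stranded QuantSeq libraries hold sequence from close to the 3′ end of polyadenylated transcripts. Since a library is a pool, the p-values rest on the spread from pool to pool and not on that between mice.

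Libraries held 14594850 to 22677130 reads assigned to genes in TDC, 14973484 to 25676640 in DC and 10986544 to 18071425 in T cells. Summed markers were high in the DC and T cell libraries that their labels name, and TDC held both kinds at levels below those libraries. T cell markers reached 41.7 to 128 CPM (the usual depth-scaled read count, here with TMM library sizes) in TDC, at most 2.51 CPM in DC, with 3651 to 5699 CPM in T cells. Markers of DC reached 2028 to 4752 CPM in TDC, 18980 to 37748 CPM in DC and at most 10.2 CPM in T cells. The red pulp macrophage genes Adgre1, Vcam1, Spic, C1qa and Cd5l summed to 18809 to 26991 CPM in TDC, 135 to 256 CPM in DC and at most 0.563 CPM in T cells. In such bulk samples, fewer cells of a type and less RNA per cell cannot be told apart.

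An antibody is made of heavy and light chains, and each chain joins a variable region, assembled in B cells from gene segments, to a constant region. Unswitched B cells make the μ and δ heavy chains of Ighm and Ighd, class switching replaces them with γ, α or ε constants, and antibody-secreting plasma cells also make the J chain that links IgM and IgA into polymers. The μ constant region can be transcribed without a V segment as well, from a start near the intronic enhancer of the locus, and such sterile transcripts are known from lymphoid cells outside the B lineage. In a rearranged transcript the V segment lies toward the 5′ end and the constant region toward the 3′ end that these libraries read. The Ighm row pools sterile and rearranged transcripts, and also the transcripts of secreted and membrane-bound μ chain, whose coding ends differ completely. Both ends are printed here because the Ighm row carries most of the reads (GENCODE M21 transcripts on GRCm38, minus strand, 5′ to 3′, last 60 coding bases, gene at chr12:113418558-113422730).
Ighm secreted end: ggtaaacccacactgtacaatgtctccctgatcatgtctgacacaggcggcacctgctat
Ighm membrane end: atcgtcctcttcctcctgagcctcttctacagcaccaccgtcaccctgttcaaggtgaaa

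The V segments shown next were the most abundant segment of the 7 libraries that held more than 2 V segment reads. The bases are the last 60 coding bases of the unrearranged segment, which lead into the antigen-contacting loop that the join completes, and capitals mark the last in-frame cysteine codon (GENCODE M21 transcripts on GRCm38, 5′ to 3′). The bases lie at chr6:70171809-70171868 for Igkv8-27 (minus strand), chr6:69726573-69726632 for Igkv5-48 (minus), chr6:67610449-67610508 for Igkv1-135 (plus), chr6:68736297-68736356 for Igkv19-93 (minus), chr6:70607977-70608036 for Igkv3-7 (plus), chr12:114991108-114991167 for Ighv1-47 (minus) and chr6:68256810-68256869 for Igkv14-111 (plus).
Igkv8-27, most abundant in TDC replicate 1: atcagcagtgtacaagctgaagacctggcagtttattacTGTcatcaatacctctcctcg
Igkv5-48, in TDC replicate 2: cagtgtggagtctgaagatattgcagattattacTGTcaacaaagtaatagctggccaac
Igkv1-135, in TDC replicate 3: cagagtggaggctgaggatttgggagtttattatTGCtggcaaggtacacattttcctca
Igkv19-93, in DC replicate 1: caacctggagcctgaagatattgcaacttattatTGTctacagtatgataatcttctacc
Igkv3-7, in DC replicate 2: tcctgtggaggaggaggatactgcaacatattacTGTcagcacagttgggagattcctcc
Ighv1-47, in T cell replicate 2: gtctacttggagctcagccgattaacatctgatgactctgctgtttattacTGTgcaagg
Igkv14-111, in T cell replicate 3: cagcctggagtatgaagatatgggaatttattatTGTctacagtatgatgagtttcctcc

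The members held 97546 reads in all, and 94218 of them fell on Ighm. Beside it, Igkc had 1325 reads, Ighd 571, Jchain 203 and Ighg2b 156, and each of the other 35 members had 91 or fewer. Ighm made up 68.9% (Wilson 95% interval 66.3% to 71.4%), 87.2% (85.6% to 88.7%) and 91.0% (90.0% to 91.9%) of the member reads in TDC replicates 1, 2 and 3. In DC its share was 89.7% (89.2% to 90.2%), 94.6% (94.1% to 95%) and 99.7% (99.5% to 99.8%), and in T cells 99.3% (99.1% to 99.4%), 99.1% (99.0% to 99.2%) and 99.3% (99.2% to 99.4%). The intervals cover counting error only. The share was at most 91.0% in the 3 TDC libraries and in DC replicate 1, and at or above 99% in DC replicate 3 and the T cell libraries.

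**Figure D1:**
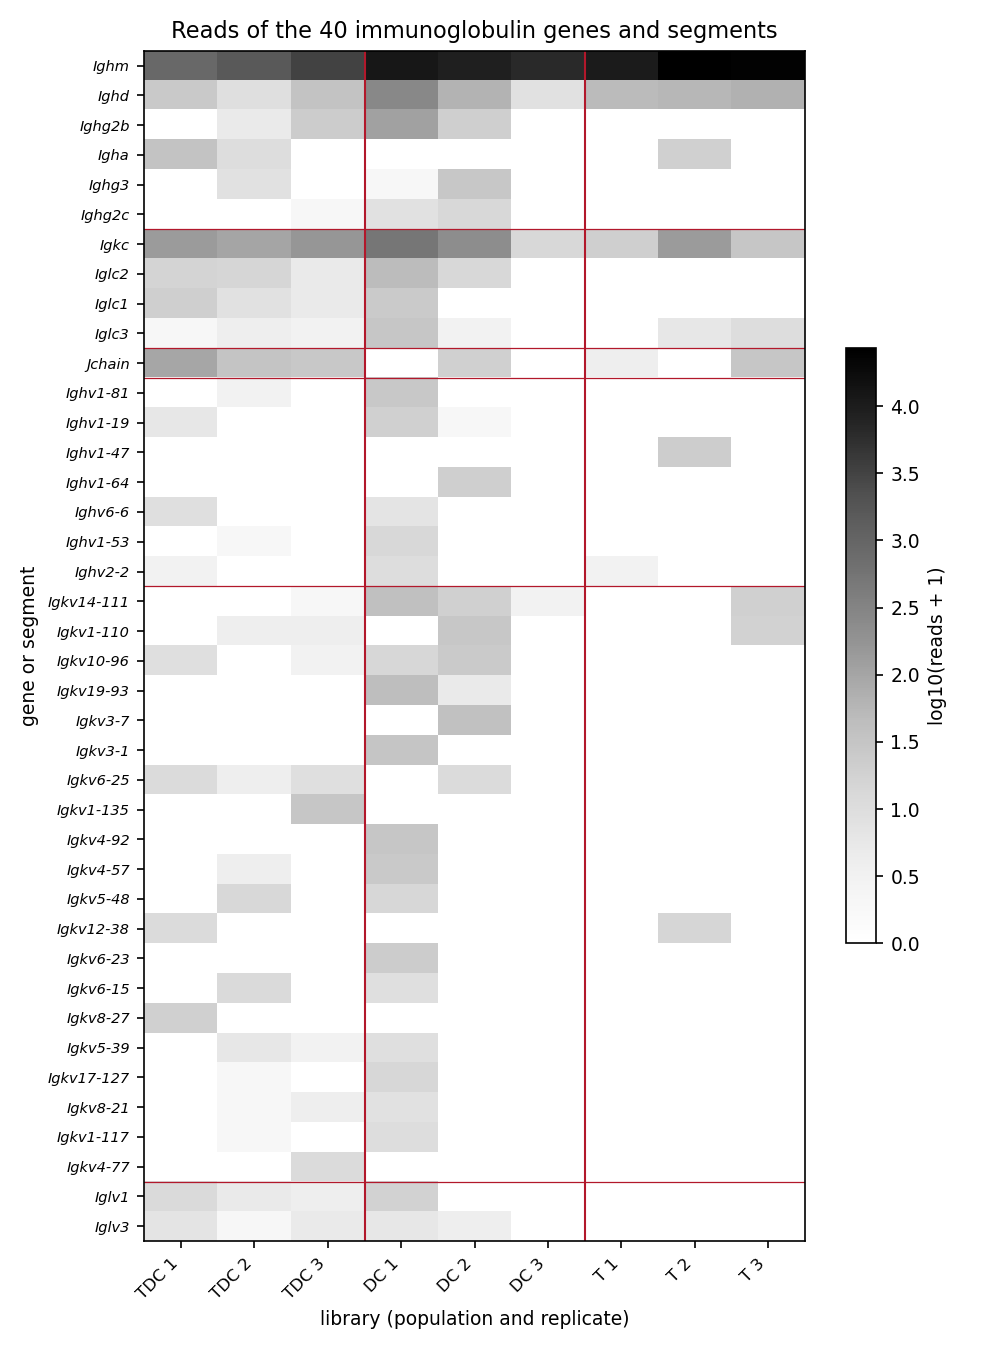
Reads of the 40 members (rows, grouped from the top as heavy constant, light constant, Jchain, heavy V, kappa V and lambda V) in the 9 libraries (columns), shaded as log10(reads + 1). Ighm is dark in every library, from 887 to 26914 reads, while no V segment has reads in all 9 and DC replicate 3 and T cell replicate 1 are nearly empty below the constant genes.

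Ighm, which encodes the μ heavy chain of IgM, was lower in TDC than in either control. Its level was 79.6, 86.9 and 238 CPM in TDC replicates 1, 2 and 3, against 454, 626 and 386.5 CPM in DC and 705, 1329 and 1252 CPM in T cells. The 3 populations did not overlap, with every TDC library below every DC library and every DC library below every T cell library. The mean was 135 ± 89.5 CPM in TDC, 489 ± 124 CPM in DC, with 1095 ± 340.1 CPM in T cells (SD, n = 3 each). The log2 fold change was -1.86 for TDC against DC (SE 0.47, edgeR quasi-likelihood test with Benjamini-Hochberg adjustment, adjusted p = 0.0251) and -3.02 for TDC against T cells (SE 0.49, edgeR adjusted p = 0.00111). DC against T cells gave a log2 fold change of -1.16 (SE 0.46) that did not pass (edgeR adjusted p = 0.0971). The call against T cells held in all 16 alternatives, with adjusted p up to 0.00649. The call against DC ended without TDC replicate 1 (edgeR adjusted p = 0.0713), TDC replicate 2 (0.0996), DC replicate 1 (0.0556) or DC replicate 2 (0.0602). DC against T cells was called without TDC replicate 3 (edgeR adjusted p = 0.0349) and in 3 other alternatives.

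Ighd, the δ constant gene that is spliced from the same primary transcript as Ighm, was not called in any comparison. It had 2.24, 0.446 and 2.46 CPM in TDC, against 10.4, 4.18 and 0.417 CPM in DC and 3.31, 2.67 and 3.40 CPM in T cells. The DC libraries spanned the values of both other populations, and each TDC library was below each T cell library. The log2 fold change of TDC was -1.55 against DC (SE 1.065, edgeR adjusted p = 0.389) and -0.87 against T cells (SE 1.05, edgeR adjusted p = 0.570). The spread between DC libraries, from 7 reads in replicate 3 to 271 in replicate 1, limits what these 3 libraries can show.

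The switched constants were rare and uneven. Ighg2b, of IgG2b, had 0, 4 and 22 reads in TDC, against 111, 19 and 0 in DC and none in T cells. Its mean in TDC was at least 11.15-fold that of T cells and its mean in DC at least 33.4-fold, with T cells set at 3 reads over the group, but neither comparison passed (edgeR adjusted p = 0.0983 and 0.0673). It was called for TDC against T cells in 2 of 15 alternatives and for DC against T cells in 3 of 15, among them leaving out DC replicate 3 (edgeR adjusted p = 0.0490 and 0.0293). Ighg2b had passed the filter on low counts through TDC and DC libraries alone, so these differences were partly built in. Igha, of IgA, had 33, 9 and 0 reads in TDC, none in DC and 0, 18 and 0 in T cells. Ighg3 had 0, 7 and 0 reads in TDC, 1, 28 and 0 in DC and none in T cells, and Ighg2c had 1 read in TDC, in replicate 3, with 7, 12 and 0 in DC and none in T cells. Igha, Ighg3 and Ighg2c stayed below the filter on low counts and were not tested with it. None of the 4 switched constants had reads in all 3 libraries of a population, and DC replicate 3 and T cell replicates 1 and 3 had no read of any of them.

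**Figure D2:**
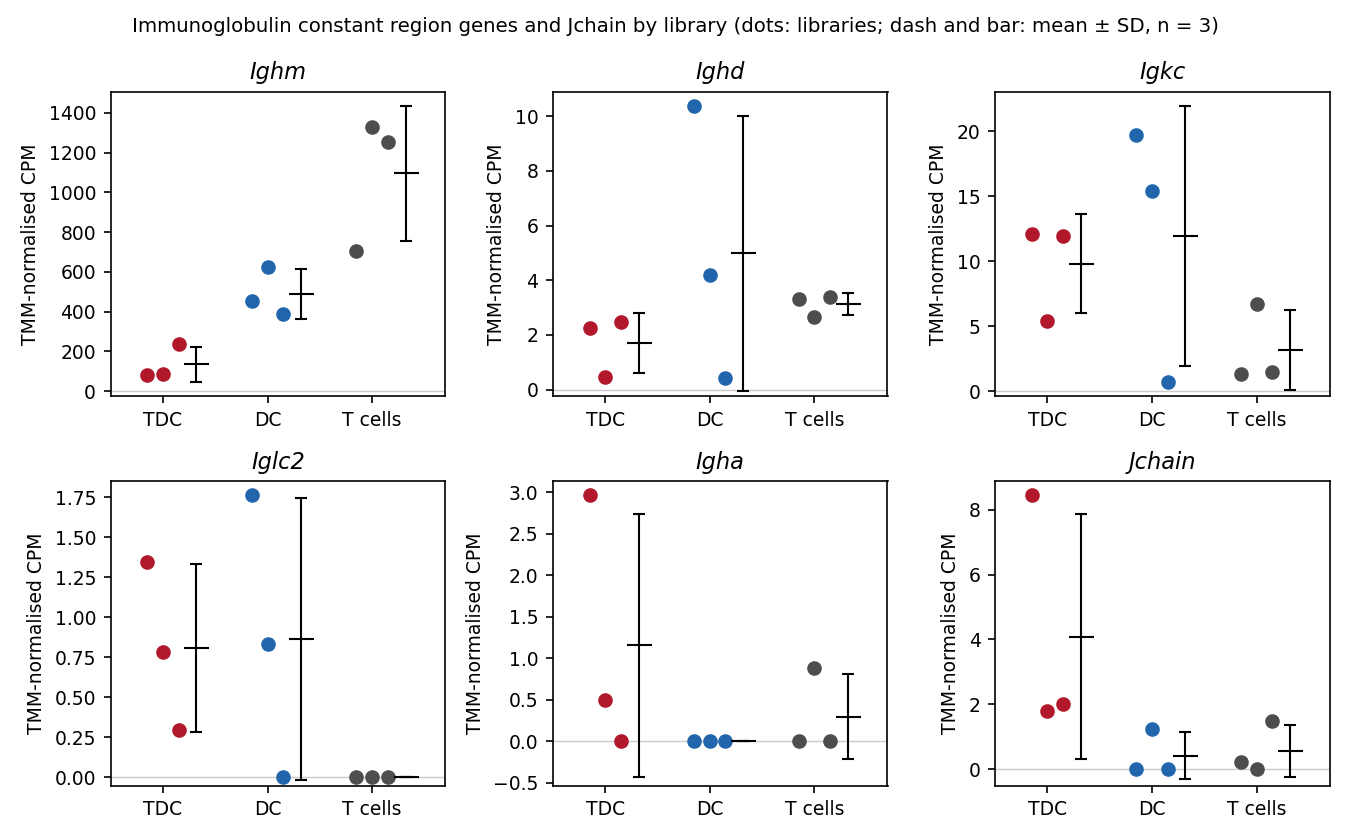
Levels of 5 constant genes and Jchain in TMM-normalised CPM (vertical axes, a scale for each gene) in TDC, DC and T cells, with a dot per library and the mean ± SD at the right (n = 3). For Ighm the 3 populations do not overlap, and for the other genes shown the DC libraries spread from at or near 0 upward or, for Igha, are all at 0.

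Of the light chain constants, Igkc and Iglc2 passed the filter and Iglc2 was called. Igkc, the single constant gene of the κ light chain, had 12.1, 5.41 and 11.9 CPM in TDC, against 19.75, 15.4 and 0.716 CPM in DC and 1.34, 6.72 and 1.49 CPM in T cells. DC replicate 3 lay below all other libraries and the other DC libraries above them, and TDC and T cells overlapped only through TDC replicate 2 and T cell replicate 2. The log2 fold change of TDC was -0.29 against DC (SE 1.01, edgeR adjusted p = 0.897) and 1.62 against T cells (SE 1.04, edgeR adjusted p = 0.264). Without DC replicate 3, DC were called higher than T cells (log2 fold change 2.47, edgeR adjusted p = 0.0424), a comparison that did not pass with all libraries (1.90, SE 1.045, edgeR adjusted p = 0.227).

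Iglc2, a constant gene of the λ light chain, had 15, 14 and 4 reads in TDC, against 46, 12 and 0 in DC and none in T cells. The means were 0.808 ± 0.525 CPM in TDC, 0.866 ± 0.881 CPM in DC, with 0 CPM in T cells (SD, n = 3 each), so TDC were at least 14.5-fold and DC at least 15.55-fold above 3 reads over the T cell libraries. Both comparisons with T cells passed (edgeR adjusted p = 0.0385 for TDC and 0.0466 for DC). Iglc2 had passed the filter on low counts through TDC and DC libraries alone, so these differences were partly built in. Leaving out any library other than DC replicate 3 ended both calls, with edgeR adjusted p from 0.0563 to 0.0978 for TDC and from 0.0663 to 0.131 for DC, and limma-voom did not call DC against T cells (adjusted p = 0.0953). Iglc1 had 19, 7 and 4 reads in TDC, 24, 0 and 0 in DC and none in T cells. Iglc3 had 1, 3 and 2 reads in TDC, 29, 2 and 0 in DC and 0, 5 and 9 in T cells. Reads were on λ constants for 35 of 170, 24 of 121 and 10 of 170 light constant reads in TDC, against 99 of 615, 14 of 235 and 0 of 12 in DC and 0 of 19, 5 of 141 and 9 of 38 in T cells. Iglc2 and Iglc3 are close copies, at 96.2% identity over the coding sequence and 1 difference in the last 60 coding bases, so their separate counts are uncertain. Iglc1 is at 73.75% and 74.9% identity to them. The coding ends show where reads could tell the 3 genes apart, with capitals at positions where they differ (GENCODE M21 on GRCm38, minus strand, 5′ to 3′, at chr16:19061755-19061814, chr16:19198539-19198598 and chr16:19065368-19065427).
Iglc1: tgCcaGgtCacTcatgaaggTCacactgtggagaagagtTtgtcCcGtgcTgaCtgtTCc
Iglc2: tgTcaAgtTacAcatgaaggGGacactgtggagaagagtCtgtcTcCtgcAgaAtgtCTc
Iglc3: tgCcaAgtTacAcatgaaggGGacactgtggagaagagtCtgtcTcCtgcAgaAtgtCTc

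Reads of Ighm were set against those of Igkc in each library, as a count of 3′ end reads and not divided by gene length. There were 6.57, 16.1 and 19.98 Ighm reads per Igkc read in TDC, against 23.0, 40.7 and 540.2 in DC and 528, 198 and 838 in T cells. Every TDC library had fewer Ighm reads per Igkc read than every control library, and DC replicate 3 lay among the T cell libraries. Without Ighm, the other 39 members summed to 35.9, 12.8 and 23.7 CPM in TDC, against 51.9, 36.0 and 1.25 CPM in DC and 4.99, 12.2 and 8.60 CPM in T cells. With TMM scaling all TDC libraries were then above all T cell libraries, the reverse of the order with Ighm. DC libraries lay on both sides. By library size alone this order was lost. TDC replicate 2, with 229 of 22677130 reads, then fell below T cell replicates 2 and 3. These held 248 of 18071425 and 167 of 14956760 reads. The sum of all 40 was 159 ± 89.4 CPM in TDC, 519 ± 138 CPM in DC, with 1104 ± 343 CPM in T cells, and without Ighm it was 24.1 ± 11.6 CPM in TDC, 29.7 ± 25.9 CPM in DC, with 8.62 ± 3.63 CPM in T cells (SD, n = 3 each). Without DC replicate 3 the DC mean of the 39 was 44.0 CPM, and without DC replicate 1 it was 18.6 CPM. These sums are descriptions of chosen members and were not tested.

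**Figure D3:**
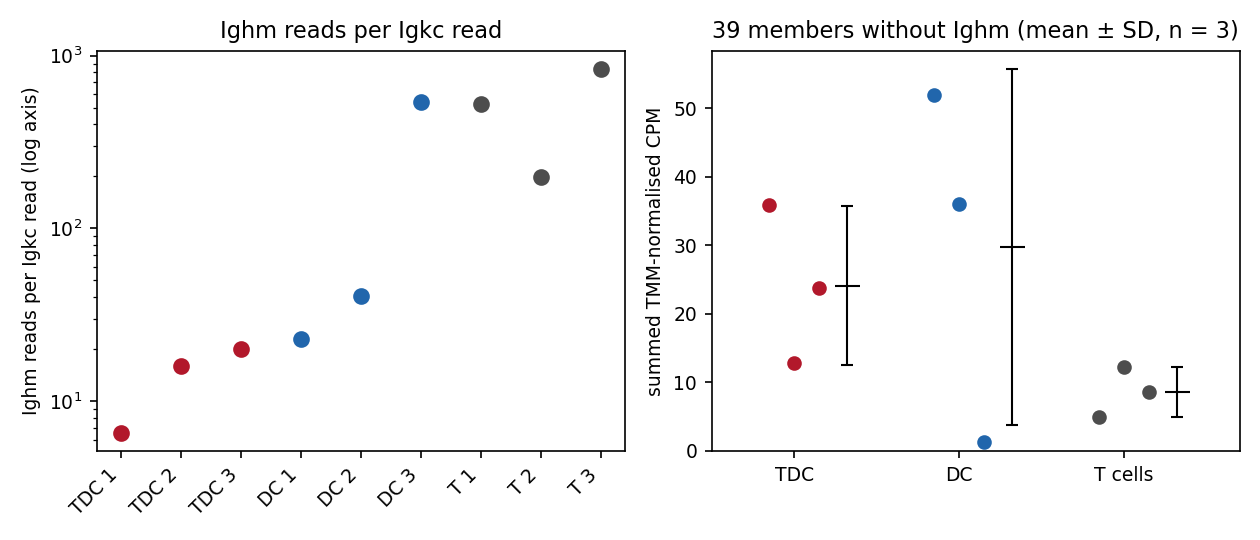
Left, Ighm reads per Igkc read in each library on a log axis. Right, summed TMM-normalised CPM of the 39 members other than Ighm, with a dot per library and the mean ± SD (n = 3). TDC libraries have 6.57 to 19.98 Ighm reads per Igkc read, T cell libraries 198 to 838, and DC replicate 3 has 540.2, apart from the other DC libraries at 23.0 and 40.7.

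Jchain, which encodes the joining chain of IgM and IgA polymers, had its highest value in TDC replicate 1. It was at 8.44, 1.78 and 2.01 CPM in TDC, against 0, 1.25 and 0 CPM in DC and 0.211, 0 and 1.49 CPM in T cells. With TMM scaling every TDC library was above every control library. The nearest were 1.78 CPM in TDC replicate 2 and 1.49 CPM in T cell replicate 3. By library size alone T cell replicate 3, with 29 of 14956760 reads, was above TDC replicates 2 and 3. These held 32 of 22677130 and 27 of 14594850 reads. The log2 fold change was 3.31 against DC (SE 1.94, edgeR adjusted p = 0.302) and 2.82 against T cells (SE 1.88, edgeR adjusted p = 0.284), so neither passed. Among 16 alternatives for each comparison, it was called once, by limma-voom against DC (adjusted p = 0.0468). TDC replicate 1 held 94 of the 203 reads. That library also had the most Igha reads, 33, and the highest summed plasma cell markers, 880.5 CPM, of which 721 CPM were Xbp1. Among TDC libraries, Txndc5 and Prdm1 were lowest there, at 138 and 20.2 CPM, and Derl3 was highest, at 1.44 CPM. The plasma cell genes Mzb1, Sdc1 and Tnfrsf17 had no read there. The part of plasma cells in the Jchain reads was not tested.

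Of the 40 members, 7 passed the filter on low counts, namely Ighm, Ighd, Ighg2b, Igkc, Iglc2, Jchain and Igkv14-111. Ighg2b and Iglc2 passed through libraries of TDC and DC alone, so their differences from T cells were partly built in. For TDC against DC, 1 of the 7 was called, Ighm, beside 14.1% of the 14708 genes tested (9.55% higher and 4.60% lower). None was called higher by edgeR, with 0 at an unadjusted p under 0.05, 1 by limma-voom and 0 by DESeq2. For TDC against T cells 2 of 7 were called, Iglc2 higher and Ighm lower, beside 33.0% of all genes (21.8% higher and 11.2% lower). For DC against T cells 1 of 7 was called, Iglc2, beside 23.8% of all genes (15.4% higher and 8.41% lower). The members' shares were close to the background in each comparison. The median log2 fold change of the 7 was -1.55, 1.62 and 1.59 in these comparisons, beside 0.01, 0.14 and 0.08 over all genes. Each pair of these comparisons shares the libraries of 1 population.

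The 29 V segments held 761 reads, with 191 in TDC, 499 in DC and 71 in T cells. Kappa segments had 144 reads in TDC, 384 in DC and 48 in T cells. Heavy segments had 18 reads in TDC, 91 in DC and 23 in T cells, and lambda segments 29, 24 and 0. By library there were 78, 48 and 65 V segment reads in TDC, against 352, 145 and 2 in DC and 2, 35 and 34 in T cells. DC replicate 1 alone held 46.3% of them (Wilson 95% interval 42.7% to 49.8%). Igkv14-111 was the only V segment to pass the filter, with 0, 0 and 1 reads in TDC, 39, 18 and 2 in DC and 0, 0 and 18 in T cells. It was not called for TDC against DC, where every DC library was above every TDC library (log2 fold change -4.94, SE 2.10, edgeR adjusted p = 0.153), nor for TDC against T cells (edgeR adjusted p = 0.242) or DC against T cells (edgeR adjusted p = 0.550). With no filter, edgeR called 0 of the 29 in each comparison, with a lowest adjusted p of 0.118 for TDC against DC, 0.0668 for TDC against T cells and 0.0622 for DC against T cells. At an unadjusted p under 0.05 there were 11, 11 and 15. For TDC against T cells limma-voom called 3 of the 29 and DESeq2 0, and for the other comparisons both called 0, with 19 of the 29 given no adjusted p by DESeq2.

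Segments were spread thinly over the libraries. Of the 29, 9 had reads in 1 library, 10 in 2, 4 in 3, 4 in 4 and 2 in 5, and 25 had more than 50% of their reads in 1 library. For 14 of these 25 that library was DC replicate 1. Reads were found for 22 segments in TDC, 24 in DC and 5 in T cells, with 18 shared by TDC and DC. Found in TDC alone were 3 segments, Igkv8-27 with 18 reads in replicate 1 and Igkv1-135 and Igkv4-77 with 29 and 10 reads in replicate 3. Found in DC alone were 6, among them Igkv3-7 with 38 reads in replicate 2. In T cells alone there was 1, Ighv1-47 with 21 reads in replicate 2. Igkv6-25, Iglv1 and Iglv3 had reads in all 3 TDC libraries, with 10, 3 and 8 reads for Igkv6-25, 11, 4 and 3 for Iglv1 and 6, 1 and 4 for Iglv3. Igkv14-111 alone had reads in all 3 DC libraries, and no segment had reads in all 3 T cell libraries.

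The leading segment differed between TDC and DC of the same replicate number in all 3 pairs, while DC replicate 3, with its 2 reads, and T cell replicate 3 both led with Igkv14-111. TDC replicate 1 had 9 segments and DC replicate 1 had 20, with 6 in common (66.7% of the TDC list and 30.0% of the DC list). TDC replicate 2 and DC replicate 1, with different numbers, had 11 in common (84.6% and 55.0%). TDC replicate 2 and DC replicate 2 had 3 in common (23.1% and 33.3%). In replicate 3, the 1 segment of DC was among the 10 of TDC, as were both segments of T cells. DC replicate 1 also had the most V segment reads, 352. At a common 34 reads its list would hold 14.9 segments, against 7.38 in DC replicate 2 and 8.59 to 11.4 in TDC. The part of depth in these overlaps was not tested.

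**Figure D4:**
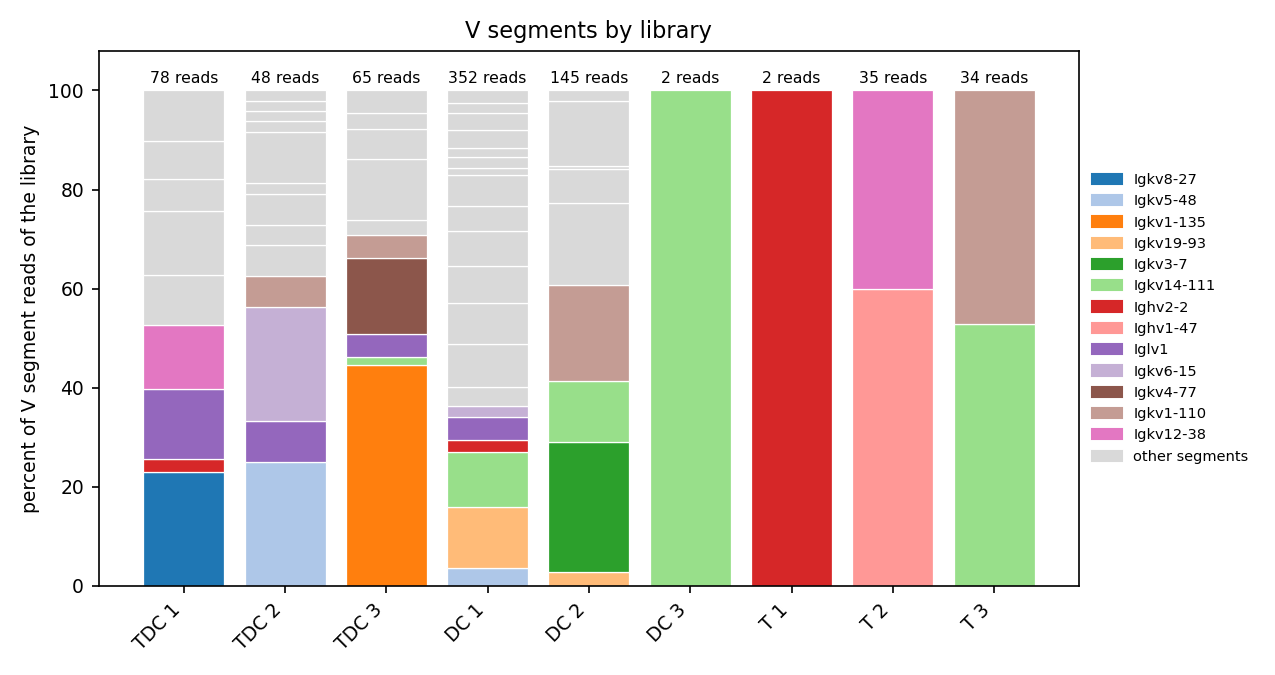
Share of each V segment in the V segment reads of a library (percent, stacked), with the number of reads above each bar; colours mark the 13 segments that were first or second in a library, and grey boxes the other segments. The leading segment differs between all 3 TDC libraries, and the bars of DC replicate 3 and T cell replicate 1 rest on 2 reads each.

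Number and evenness were described together by the effective number of segments, the exponential of the Shannon entropy. It equals the number of segments when all are equally abundant, and it rises with the number of segments found. It was 7.97, 8.87 and 5.94 in TDC, against 16.7, 6.62 and 1.00 in DC and 1.00, 1.96 and 2.00 in T cells. All TDC libraries were above all T cell libraries and inside the range of DC. Reads were found on 9, 13 and 10 segments in TDC, 20, 9 and 1 in DC and 1, 2 and 2 in T cells. T cell replicates 2 and 3 were thus close to their number of segments, and the TDC libraries further below theirs. The order of TDC above T cells followed the number of segments found and not how evenly they were used. DC replicate 3 and T cell replicate 1, with 2 reads each, can show no more than 2 segments, so their values are set by depth. At a common 34 V reads, left out for those libraries, the number of segments would be 8.59, 11.4 and 8.72 in TDC, against 14.9 and 7.38 in DC replicates 1 and 2 and 2.00 and 2.00 in T cell replicates 2 and 3. The order of TDC above T cells was thus also present at equal depth. The group mean was 7.59 ± 1.5 in TDC, 8.10 ± 7.94 in DC and 1.65 ± 0.565 in T cells (SD, n = 3 each), and leaving out DC replicate 1 or 3 put the DC mean at 3.81 or 11.65. Over all V rows, with no threshold on reads, the means were 15.85 in TDC, 11.6 in DC and 4.005 in T cells. The DC mean there takes in the 1.00 of DC replicate 3, from its 2 reads. DC replicates 1 and 2 were at 24.6 and 9.19, against 12.9, 23.4 and 11.25 in TDC, so TDC and DC overlapped.

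The leading segment took 23.1% of V reads in TDC replicate 1 (Igkv8-27, Wilson 95% interval 15.1% to 33.6%), 25.0% in replicate 2 (Igkv5-48, 14.9% to 38.8%) and 44.6% in replicate 3 (Igkv1-135, 33.2% to 56.7%). In DC it took 12.2% in replicate 1 (Igkv19-93, 9.20% to 16.1%) and 26.2% in replicate 2 (Igkv3-7, 19.7% to 33.9%). In T cells it took 60% in replicate 2 (Ighv1-47, 43.6% to 74.4%) and 52.9% in replicate 3 (Igkv14-111, 36.7% to 68.5%). The 2 reads of DC replicate 3 were on Igkv14-111 and the 2 reads of T cell replicate 1 on Ighv2-2. Second in rank were Iglv1, Igkv6-15 and Igkv4-77 in TDC replicates 1, 2 and 3, Igkv14-111 and Igkv1-110 in DC replicates 1 and 2, and Igkv12-38 and Igkv1-110 in T cell replicates 2 and 3. T cell replicates 2 and 3 had reads on 2 V segments each and shared neither. Many V segments have close copies. Of the 28 members with an annotated coding sequence, 12 had another segment of their class at 95% identity or more, with a median best identity of 94.5%, so reads could be split or lost between such copies.

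Markers of B cells and plasma cells were read beside these values. B cell markers (Ms4a1, Cd79a, Cd79b, Pax5, Ebf1, Cd22, Fcer2a and Cr2) summed to 99.5 to 146 CPM in TDC, 287.5 to 381 CPM in DC and 15.5 to 34.9 CPM in T cells. All 8 were detected in DC and in T cells, and all but Pax5 in TDC. Pax5, the factor that holds B cell identity, had 11 reads in DC replicate 1, 27 in T cell replicate 2 and none elsewhere. In T cells, Fcer2a had reads in replicate 2 alone, and Ebf1 had 2 reads in all. Cd79a, whose product carries the signal of surface immunoglobulin, had 8.79, 0.892 and 1.34 CPM in TDC, against 7.12, 2.16 and 0.656 CPM in DC and 2.04, 3.51 and 0.464 CPM in T cells. The markers did not peak in the same library of a population. Cd22 was highest in DC replicate 3, at 138 CPM, where the sum of the 39 members without Ighm was lowest. The other B cell markers went the other way among DC. Ms4a1, Cd79a, Cd79b, Ebf1 and Fcer2a were lowest in DC replicate 3, at 187, 0.656, 17.95, 0.0596 and 0 CPM. Cr2 and Pax5 had DC reads in replicate 1 alone. Of the plasma cell markers, Tnfrsf17, the receptor BCMA, was at 0 throughout, and Mzb1, a chaperone of IgM assembly, had 0, 5 and 4 reads in TDC, 8, 0 and 0 in DC and none in T cells. Sdc1, the surface marker CD138, had 0, 13 and 0 reads in TDC, 0, 0 and 51 in DC and 10, 13 and 23 in T cells. The summed plasma cell markers ran from 594 to 880.5 CPM in TDC, 282 to 399 CPM in DC, with 177 to 199.6 CPM in T cells, led by Xbp1, Txndc5 and Prdm1, which other secretory and activated cells also use. The part of B cells or plasma cells in the immunoglobulin reads was not tested.

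**Figure D5:**
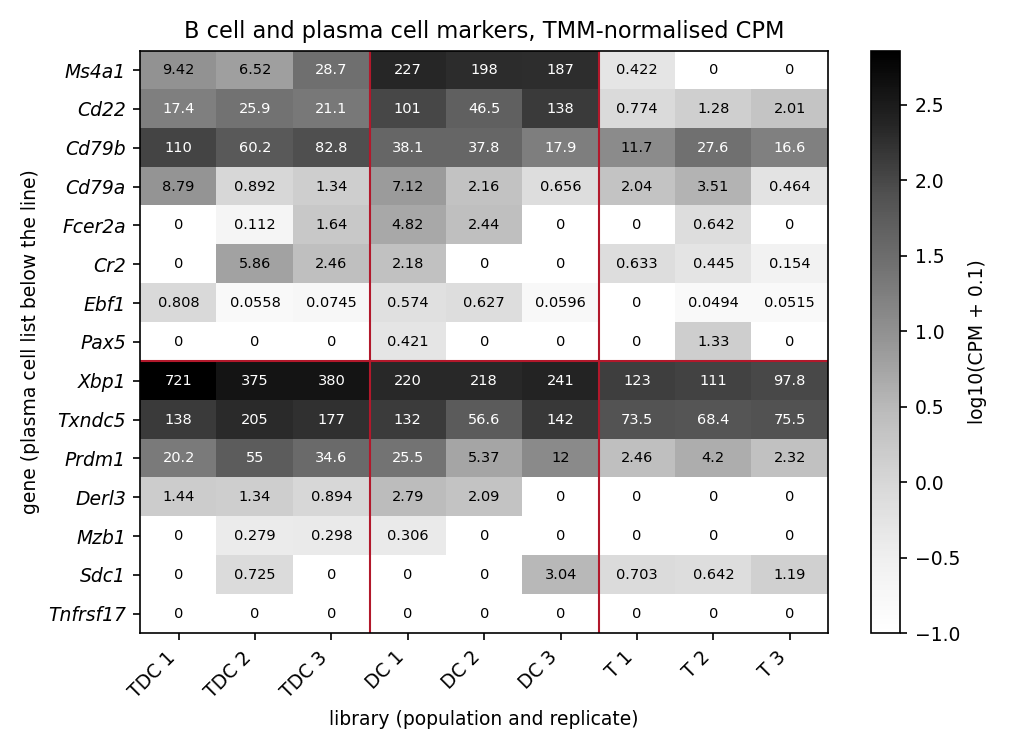
TMM-normalised CPM of 8 B cell markers (above the line) and 7 plasma cell markers (below it) in the 9 libraries, shaded as log10(CPM + 0.1). Ms4a1 and Cd22 are highest in DC, Cd79b and Xbp1 in TDC, while Pax5, Mzb1 and Tnfrsf17 are at or near 0 in most libraries.

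A list of 21 B cell identity genes, from surface receptors to transcription factors and signalling proteins, held 17 that were tested. Against DC, 2 of the 17 were higher in TDC and 3 lower, beside 9.55% higher and 4.60% lower over all genes, with a median log2 fold change of -1.30. Blnk, an adaptor downstream of the B cell receptor and of other immune receptors, averaged 163 ± 25.3 CPM in TDC, against 5.46 ± 1.63 CPM in DC (4.89 on the log2 scale, edgeR adjusted p = 0.000297), and Bank1, a scaffold of B cell receptor signalling, was also higher (3.22, edgeR adjusted p = 0.0352). The lower genes were Ms4a1, which encodes CD20, averaging 14.9 ± 12.1 CPM in TDC, against 204 ± 20.6 CPM in DC (edgeR adjusted p = 0.00931), Cd22, an inhibitory coreceptor (edgeR adjusted p = 0.0129), and Cd72 (edgeR adjusted p = 0.00211). Against T cells, 9 were higher and 3 lower in TDC, beside 21.8% and 11.2% over all genes, with a median of 2.75. Blnk and the kinase gene Btk had no reads in T cells, and Btk was at 110 ± 4.52 CPM in TDC (edgeR adjusted p = 4.34e-06 for Blnk and 5.95e-06 for Btk). DC against T cells gave 8 higher and 2 lower, beside 15.4% and 8.41%, with a median of 3.42.

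The list for plasma cells and antibody secretion had 24 genes, of which 21 were tested. In TDC 4 of the 21 were higher and 3 lower than in DC (median log2 fold change -0.13), beside 9.55% and 4.60% of all genes. Against T cells 11 were higher and 2 lower in TDC (median 1.26), beside 21.8% and 11.2% of all genes. In DC 11 were higher and 1 lower than in T cells (median 1.14), beside 15.4% and 8.41%. Xbp1, the transcription factor of secretory capacity, was at 492 ± 198 CPM in TDC, 226 ± 13.0 CPM in DC, with 111 ± 12.6 CPM in T cells, above DC in TDC (by 1.12 on the log2 scale, edgeR adjusted p = 0.0396) and above T cells (by 2.15, edgeR adjusted p = 0.000677). Herpud1, of the degradation of misfolded proteins, and Hsp90b1, a chaperone, were also above T cells in TDC (log2 fold changes 2.44 and 1.98, edgeR adjusted p = 0.000311 and 0.000911). Cd28, a T cell costimulatory receptor that plasma cells also use, was lower in TDC than in T cells and higher than in DC (log2 fold change -4.64 and edgeR adjusted p = 9.16e-05 against T cells, edgeR adjusted p = 0.000149 against DC). Fam46c, Tnfrsf13b and Slamf7 were lower in TDC than in DC (-2.93, -3.65 and -3.85 on the log2 scale, edgeR adjusted p = 0.00243, 0.00277 and 0.00679).

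Of 15 genes of V(D)J recombination and class switching, 13 were tested. For TDC against DC edgeR called 0, with 2 at an unadjusted p under 0.05, 0 by limma-voom and 1 by DESeq2. Against T cells 1 of the 13 was higher in TDC and 3 lower, and DC against T cells gave 1 higher and 2 lower, shares near the 33.0% and 23.8% of all genes called in either direction. Dntt, which adds bases at segment joints, had 0, 0 and 8 reads in TDC, none in DC and 121, 246 and 436 in T cells (TDC against T cells log2 fold change -6.14, edgeR adjusted p = 0.0138). Rag1 of the recombinase was at 0 throughout, and Rag2 had 3 reads, all in TDC replicate 1. In the list for surrogate light chain and pre-B cell genes 3 of 6 were tested. Vpreb1, a part of the surrogate light chain, had 19, 4 and 4 reads in TDC, 2, 0 and 0 in DC and 15, 16 and 32 in T cells, and it was called lower in DC than in T cells (edgeR adjusted p = 0.0286). Its partner Igll1 and its close relative Vpreb2 had no read. For TDC against DC edgeR called 0 of the 3, with 1 at an unadjusted p under 0.05 and 1 each by limma-voom and DESeq2. Il7r, the interleukin 7 receptor, was lower in TDC than in T cells (-4.79 on the log2 scale, edgeR adjusted p = 0.00221).

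A list of antibody receptors and transporters held 12 genes, of which 8 were tested, and 5 were higher in TDC than in DC and 0 lower (median log2 fold change 2.81), beside 9.55% higher and 4.60% lower over all genes. For the lower direction edgeR gave 1 at an unadjusted p under 0.05, and limma-voom and DESeq2 called 1 each. Fcgr2b, the inhibitory receptor for IgG, was at 10.7 ± 6.34 CPM in TDC, against 84.9 ± 37.7 CPM in DC (log2 fold change -2.98, edgeR adjusted p = 0.0578). Against T cells 7 were higher in TDC and 0 lower by edgeR, with 0 lower at an unadjusted p under 0.05 and by either other tool (median 7.08), beside 21.8% higher and 11.2% lower over all genes. In DC against T cells 6 were higher and 0 lower, again with 0 lower under each of these counts (median 5.73), beside 15.4% and 8.41%. Fcgr1, the high-affinity receptor for IgG, was at 244 ± 101.4 CPM in TDC, 3.70 ± 0.827 CPM in DC, with 0 CPM in T cells (TDC against DC log2 fold change 6.04, edgeR adjusted p = 0.000268). Fcgr3, a receptor for IgG complexes, was at 1249.5 ± 568 CPM in TDC, 5.37 ± 5.71 CPM in DC, with 2.38 ± 2.10 CPM in T cells (TDC against DC 7.85, edgeR adjusted p = 0.00490). Fcgrt, which recycles and carries IgG inside cells, was at 1763 ± 625 CPM in TDC, 137 ± 24.1 CPM in DC, with 37.3 ± 13.8 CPM in T cells (TDC against DC 3.68, edgeR adjusted p = 0.000436). Fcgr4, another IgG receptor, was higher in TDC as well (3.52, edgeR adjusted p = 0.00429). Fcrl1, a B cell surface protein related to these receptors and not an established antibody receptor, was at 154 ± 36.0 CPM in TDC, against 2.42 ± 0.664 CPM in T cells (5.99, edgeR adjusted p = 4.34e-06). TDC also had the high red pulp macrophage markers given above, whose part in these receptor levels was not tested.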

How the data were processed

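The deposited table holds raw read counts per gene symbol, made from stranded QuantSeq libraries per the labels' protocols. STAR and featureCounts, with Trimmomatic, FastQC and MultiQC, are named per the submitters' processing notes. These also name hg38 although the symbols are mouse, and no version, annotation or strand setting is stated there, so antisense and overlapping genes are uncertain. Coordinates and sequences come from GENCODE M21 (GRCm38), in which all 40 members were found.

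Counts were tested with edgeR 4.0.16 (R 4.3.3) on all 9 libraries: filterByExpr (minimum count 10, minimum total 15) kept 14708 genes and at least 99.8% of reads, followed by TMM scaling, a robust quasi-likelihood fit of the 3 groups (6 residual degrees of freedom) and adjustment by Benjamini and Hochberg over all genes kept, with a threshold of 0.05. Printed standard errors are those implied by the F test. CPM are scaled by TMM library sizes, and 1 read was worth 0.0383 to 0.0897 CPM. Folds against a group without reads are lower bounds from 3 reads over that group, for counting error only. limma 3.58.1 and DESeq2 1.42.0 were alternatives. Within groups, chi-square over its degrees of freedom was at least 62.3, so no library repeated another. The test was checked on simulated data.

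The members and lists were chosen with earlier results of these data known. Named were all constant genes and Jchain, the 2 leading V segments of each library, up to 4 genes per list and comparison by smallest adjusted p, and marker genes of B cells and plasma cells. Some genes of the lists are not reported here and were left out of the list counts and sums. Fam46c is the older symbol of Tent5c. Segments named beyond this rule were chosen after their values were seen.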

Additional observations from a re-analysis of the deposited data

How the results depend on the processing

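Among all comparisons of single members and alternatives, 295 kept their side of the threshold, 23 lost a call and 11 gained one, and no called value changed sign. TDC against DC gave 1 called member (Ighm), 2 with limma-voom and 0 to 1 with a library left out. TDC against T cells gave 2, with 4 without the filter on low counts, 1 with the 2 groups fitted alone and 1 to 4 with a library left out (4 without DC replicate 3). DC against T cells gave 1, with 2 each for library size alone, no filter and the DESeq2 Wald test, and 0 to 3 with a library left out (3 without DC replicate 3). The cause of these changes was not tested. With the replicate number as a block, TDC against T cells gave 1 and DC against T cells 0, since both Iglc2 calls ended (adjusted p = 0.0575 and 0.0945). Same-numbered libraries share a tag and a pool size in the labels, which do not say what the tag marks. Their deviations correlated from -0.384 to 0.224, against -0.197 to 0.363 for libraries of different numbers. Such correlations cannot tell whether a pool was shared, so the replicate block was kept as an alternative.

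Scaled by library size alone, all genes shifted in median log2 fold change by -0.285, -0.607 and -0.290 for TDC against DC, TDC against T cells and DC against T cells. The higher share of all calls was then 53.1%, 42.9% and 50.2%, against 67.5%, 66.0% and 64.7%. The direction of Ighm was the same under each scaling. The mean effective number of V segments in TDC, 7.59, was 6.00 as an inverse Simpson index and 9.57 segments at a common number of reads. Over all V rows without the threshold, the mean effective number was 15.85 in TDC and 11.6 in DC, where replicate 3 rested on 2 reads. In T cells the mean was 1.65, and 4.005 over all V rows. Mean summed levels moved by less than 1 SD under each alternative tried, a measure that does not cover the order of libraries. By library size alone, the sum without Ighm in TDC replicate 2 fell below T cell replicates 2 and 3. Leaving out 1 of 3 libraries cannot move a mean by 1 SD, so those alternatives could not have shown more. The other alternatives for the sum of all 40 members kept Ighm, which holds most of its reads. The alternatives for the sum without Ighm were chosen after seeing the data. Depth limits the V segments, with 761 reads over 29 segments in 9 libraries.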

Other observations

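Rows of the joining and diversity segments lie outside the members and were looked at after the values of Ighm were seen. The 4 Ighj rows summed to 2, 5 and 8 reads in TDC (0.180, 0.279 and 0.596 CPM), against 43, 11 and 21 in DC (1.65, 0.766 and 1.25 CPM) and 31, 46 and 58 in T cells (2.18, 2.27 and 2.99 CPM). The populations did not overlap and stood in the same order as for Ighm, whose transcripts these segments precede in the genome. Over all libraries Ighj1 held most of these reads, with 1, 2 and 6 in TDC, 33, 8 and 6 in DC and 21, 22 and 42 in T cells. The heavy D rows had 0 reads in TDC, 1 in DC replicate 1, and 5 and 8 in T cell replicates 2 and 3. The Igkj rows had 0, 2 and 7 reads in TDC, 6, 1 and 3 in DC and 0, 7 and 0 in T cells.

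V rows below the threshold held 24, 38 and 25 reads in TDC, against 56, 19 and 0 in DC and 6, 17 and 9 in T cells. With them, 16, 33 and 18 V rows had reads in TDC, against 40, 15 and 1 in DC and 5, 5 and 4 in T cells. In CPM these low rows summed to 2.15, 2.12 and 1.86 in TDC, 2.14, 1.32 and 0 in DC and 0.422, 0.840 and 0.464 in T cells.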
